A study of Mus musculus with 405 samples.

Results

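The genes described here are 7 of the 8 genes *Hmgcs1*, *Sqle*, *Lss*, *Cyp51*, *Dhcr7*, *Idi1*, *Fdft1* and *Insig1*, chosen by symbol as genes of cholesterol synthesis and its control; *Hmgcs1* was not analysed here. All 7 were among the 13304 genes of a chemical screen and among the 23893 genes of a count table for the fungicide pyraclostrobin. The screen used primary cultures of embryonic cortex (day 15 by the labels) from C57BL/6J dams crossed to CAST/EiJ males, which are labelled as cortical neurons but also hold glial cells. Every culture, vehicle cultures included, had received an inhibitor of mitosis before it was exposed for 24 h, from day 7 *in vitro*, to 1 chemical or to vehicle (dimethylsulphoxide), and polyadenylated RNA was sequenced. The screen held 393 libraries: 49 of vehicle and 344 of 297 chemicals, of which 257 were used at 10 μM, each concentration having been set below toxicity. The count table held 4 libraries of pyraclostrobin at 0.1 μM and 4 of vehicle. Values of the screen were median-centred for each gene by the authors and are given here as log2. They compare chemicals within a gene and say nothing of the level of one gene against another. Medians of genes over the 393 libraries lay up to 0.107 from 0 on the log10 scale, so 0 is only near a gene's median.

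Cells build cholesterol from acetyl-CoA through isopentenyl units, squalene and lanosterol. When sterols in the endoplasmic reticulum run low, sterol regulatory element-binding proteins (SREBPs), held by INSIG proteins until then, are cleaved in the Golgi and switch on the genes of the pathway together with those for lipoprotein uptake. Azole fungicides block fungal CYP51, the sterol demethylase, and bind the mammalian enzyme to differing degrees. Fungicides grouped as morpholines, such as spiroxamine, inhibit later steps of sterol synthesis, whereas dimethomorph carries a morpholine ring but acts on cell wall formation. In brain, cholesterol is made locally by neurons and astrocytes.

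*Idi1* (isopentenyl-diphosphate isomerase) lies on mm9 chromosome 13 from 8884852 to 8891641. *Fdft1* (squalene synthase) lies on chromosome 14 from 63763990 to 63796630, and *Sqle* (squalene epoxidase) on chromosome 15 from 59146632 to 59162747. *Lss* (lanosterol synthase) lies on chromosome 10 from 75994333 to 76019883 and *Cyp51* (lanosterol demethylase) on chromosome 5 from 4081145 to 4104746. *Dhcr7*, the reductase of the last step, lies on chromosome 7 from 151009050 to 151034315. *Insig1*, whose product retains SREBPs in the endoplasmic reticulum and is itself made under SREBP control, lies on chromosome 5 from 28397952 to 28405201.

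Promoter sequences of RefSeq (build GRCm38.p6) were matched for 5 of the 7 genes. They are shown because the genes moved together over the chemicals and because SREBPs are known to act beside factors that bind CCAAT boxes. For each gene 120 bases before a transcription start are given 5′ to 3′ on the gene's own strand, in lower case. Capitals mark CCAAT, a box that reads ATTGG on the opposite strand. In *Cyp51* they also mark the motif TCACCNCA, a core found in known sterol regulatory elements, which was searched for on both strands as well. The motifs were chosen after the sequences had been looked at.
Idi1, chr13:8885486-8885605, plus strand: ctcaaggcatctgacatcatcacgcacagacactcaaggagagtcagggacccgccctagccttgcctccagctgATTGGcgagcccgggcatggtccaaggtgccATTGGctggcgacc
Lss, chr10:76531485-76531604, plus strand: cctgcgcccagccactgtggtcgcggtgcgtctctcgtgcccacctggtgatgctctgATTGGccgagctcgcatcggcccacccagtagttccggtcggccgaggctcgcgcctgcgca
Cyp51, chr5:4104698-4104817, minus strand: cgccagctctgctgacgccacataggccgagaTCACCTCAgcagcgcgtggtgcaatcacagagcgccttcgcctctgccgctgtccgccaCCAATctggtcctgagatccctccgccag
Dhcr7, chr7:143830094-143830213, plus strand: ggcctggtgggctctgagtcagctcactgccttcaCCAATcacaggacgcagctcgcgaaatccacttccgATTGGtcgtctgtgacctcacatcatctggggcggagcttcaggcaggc
Insig1, chr5:28071162-28071281, plus strand: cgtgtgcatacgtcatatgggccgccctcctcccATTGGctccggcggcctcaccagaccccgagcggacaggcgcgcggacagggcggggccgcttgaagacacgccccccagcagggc

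A CCAAT box stood within 250 bases before a start in all 5 genes, and in 37.5% of the 27025 genes with a promoter in the same set. For *Dhcr7* it was found in 1 of 3 promoters, the one shown, and for *Insig1* it lay in the more distant stretch shown. The longer core TCACCNCA was found in *Cyp51* alone of the 5, against 4.18% of all genes. The GC box GGGCGG, searched for on both strands and not capitalised, was found in all 5, against 35.4% of all genes. These matches describe letters in a window and were not tied to binding. The motifs were chosen with these sequences in view, and the stretches shown are ones that hold a CCAAT box. The shares beside them are therefore no test of enrichment.

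Across the 297 chemicals the 7 genes moved together. Pearson correlations of the 21 pairs of genes lay between 0.64 and 0.90, with a median of 0.78, over chemicals that share the authors' normalization. Without the 6 chemicals with the highest and the 6 with the lowest median over the genes, the correlations lay between 0.48 and 0.83. Over the 49 vehicle libraries alone they lay between 0.45 and 0.84, so the genes also moved together among vehicle cultures. All 7 genes were above 0 for 48 chemicals and at or below 0 for 53. Among the 49 vehicle libraries all 7 were above 0 in 7 and below 0 in 15.

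Among the 10 genes outside the 7 whose values were most like the mean of the 7, by Pearson correlation over 297 chemicals, were *Acat2* (0.91), *Sc4mol* (0.91), *Stard4* (0.90), *Mvd* (0.89), *Nsdhl* (0.87), *Hsd17b7* (0.87), *Acly* (0.82) and *Aacs* (0.82). Of the 10, 9 were on lists of sterol or fatty acid genes drawn up for this work: *Stard4* encodes a carrier of cholesterol within the cell and *Acly* the source of cytosolic acetyl-CoA. *Aacs*, on no list, encodes acetoacetyl-CoA synthetase. Of all 13297 other genes, the middle 90% lay between -0.20 and 0.30 in this correlation. By rank correlation the same 10 genes led, and over single libraries 9 of the 10 did.

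Azole fungicides were compared with all other chemicals to ask whether inhibitors of the sterol demethylase move the pathway. The class held 14 azoles in 15 libraries: 11 triazoles (cyproconazole, difenoconazole, diniconazole, flusilazole, hexaconazole, myclobutanil, propiconazole, tetraconazole, triadimefon, triadimenol and triticonazole) and 3 imidazoles (imazalil, prochloraz and triflumizole), all at 10 μM except cyproconazole at 1 μM. Each chemical entered as the median of its libraries and 281 chemicals formed the other group. *Idi1*, *Insig1*, *Lss* and *Cyp51* were higher with azoles than with the other chemicals, by 0.26 to 0.47 on the log2 scale, which is 1.20-fold to 1.39-fold. *Dhcr7*, *Fdft1* and *Sqle* had differences above 0 that did not pass the test. Of all 13304 genes, 0.165% were called higher, against 4 of these 7.

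**Figure D1:**
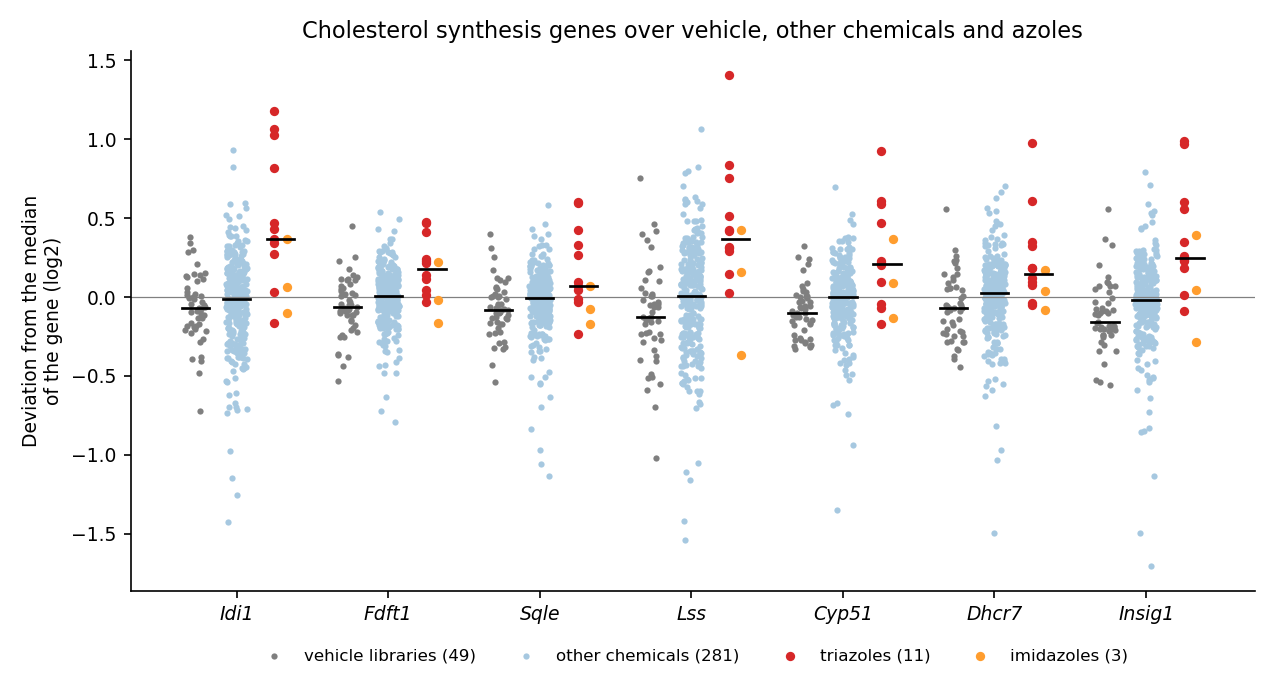
Median-centred values (y axis, log2) for 7 genes (x axis) in 49 vehicle libraries, 281 other chemicals, 11 triazoles and 3 imidazoles. Each point is 1 library or 1 chemical, and the black lines are medians, the one at the azoles being over all 14. The median of the azoles lay above that of the other chemicals for each gene, by the most for *Idi1* and *Lss*, and the azoles overlapped the other groups widely.

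*Idi1*, which makes the allylic starter of isoprenoid chains, lay between -0.16 and 1.18 with azoles, with a median of 0.37. With the other chemicals it lay between -1.43 and 0.93, with a median of -0.01. The difference of means was 0.47 ± 0.09 (SE; 95% interval 0.30 to 0.64; limma, adjusted p = 0.0012). Of the 14 azoles, 12 were above the median of the other chemicals and 3 (propiconazole, difenoconazole and triticonazole) above all 281 of them.

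*Lss*, which folds squalene epoxide into lanosterol, lay between -0.37 and 1.40 with azoles, with a median of 0.37. The other chemicals lay between -1.54 and 1.06, with a median of 0.01. The difference was 0.42 ± 0.10 (95% interval 0.23 to 0.61; limma, adjusted p = 0.033), and 13 of 14 azoles were above the median of the others, the exception being triflumizole.

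*Cyp51*, the gene of the enzyme that azoles target in fungi, lay between -0.17 and 0.93 with azoles, with a median of 0.21. It lay between -1.35 and 0.70 with the other chemicals, with a median of 0.00. The difference was 0.26 ± 0.06 (95% interval 0.14 to 0.38; limma, adjusted p = 0.038), with 10 of 14 azoles above the median of the others.

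*Insig1*, the regulator, lay between -0.29 and 0.99 with azoles, with a median of 0.25, and between -1.70 and 0.79 with the others, with a median of -0.02. Its difference was 0.35 ± 0.08 (95% interval 0.20 to 0.51; limma, adjusted p = 0.014). Of the 14 azoles, 12 were above the median of the others, and difenoconazole and triticonazole were above every other chemical.

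The remaining enzymes showed smaller differences. For *Dhcr7* it was 0.21 ± 0.07 (95% interval 0.07 to 0.35; limma, adjusted p = 0.29), with 11 of 14 azoles above the median of the others. For *Fdft1* it was 0.17 ± 0.05 (0.07 to 0.27; limma, adjusted p = 0.20), and for *Sqle* 0.17 ± 0.06 (0.05 to 0.28; limma, adjusted p = 0.38). In permutation tests of each gene alone, two-sided with 100000 resamples over chemicals and not adjusted for the 7 genes tested, p was 1e-05 for *Idi1*, the smallest these resamples can give, and between 7e-05 and 0.0075 for the other 6.

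The calls rested on few azoles. Leaving out 1 azole at a time, *Idi1* stayed called in 14 of 14 fits, *Insig1* in 10, *Lss* in 8 and *Cyp51* in 8. Without difenoconazole, triticonazole, propiconazole or flusilazole only *Idi1* of the 7 passed; without imazalil or triadimenol *Idi1* and *Insig1* passed. The differences themselves kept their sign in these fits, with *Lss* between 0.34 and 0.48 and *Cyp51* between 0.21 and 0.29.

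The vehicle libraries had means between -0.11 and -0.06 for the 7 genes, and the other chemicals between -0.04 and 0.00. Against the 49 vehicle libraries, the 15 azole libraries were higher for all 7 genes (limma, adjusted p from 0.00017 for *Idi1* to 0.045 for *Sqle*), where 1.23% of all genes were called higher. That fit took libraries as units, both of prochloraz included, and pooled the variance of the groups. Azole libraries spread more, with SDs of 0.43 against 0.21 for *Idi1* and 0.31 against 0.16 for *Cyp51*, so these p-values may be too small. The differences ran from 0.20 for *Sqle* to 0.50 for *Lss*. Individual azoles still overlapped vehicle: the median over the 7 genes of a vehicle library lay between -0.43 and 0.45, and 4 azoles were above that range.

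Of the other listed genes, those of sterol synthesis were higher with azoles in 7 of 15 cases and lower in none, with a median difference of 0.26 against 0.00 over all genes. *Hsd17b7*, a sterol reductase, was higher by 0.43 ± 0.09 (limma, adjusted p = 0.0082) and *Tm7sf2*, another sterol reductase, by 0.45 ± 0.10 (limma, adjusted p = 0.012). *Sc4mol*, a sterol oxidase, was higher by 0.28 ± 0.07 (limma, adjusted p = 0.038). In the list of SREBP regulation and uptake, 1 of 11 genes was called, higher. Of 9 genes of fatty acid synthesis, 3 were higher, among them *Fasn* by 0.29 ± 0.07 and *Scd1* by 0.34 ± 0.08 (limma, adjusted p = 0.038 for both). None of 8 genes of cholesterol efflux and oxysterol response was called, with a median difference of -0.04.

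In all, 22 genes were called higher with azoles and 15 of them were the 4 above or on the lists of sterol or lipid genes. Of the 7 on no list, 0610007P14Rik, which RefSeq names *Erg28*, and *Cyb5b*, a cytochrome b5, stood first by p; they were picked after their values were seen. *Erg28*, the counterpart of a yeast protein that scaffolds sterol enzymes, was higher by 0.38 ± 0.08 (limma, adjusted p = 0.01) and *Cyb5b* by 0.15 ± 0.03 (limma, adjusted p = 0.0017).

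Of 26 markers of neurons, astrocytes, microglia, oligodendrocyte lineage, vessels and fibroblasts, 0 were called with azoles against the other chemicals by limma. Of all 13304 genes only 22 were called higher and 2 lower, so 0 of 26 does not show that the markers were unchanged. Their median differences lay between -0.11 for microglia and 0.00 for neurons. Against vehicle libraries 5 of 6 neuronal markers were below 0, with a median difference of -0.07, that over all genes being -0.01. Of these, 2 were called lower, *Rbfox3* by -0.26 ± 0.06 and *Tubb3* by -0.17 ± 0.05 (limma, adjusted p = 0.0052 and 0.02). The share of all genes called lower there is not given, and the share called higher was 1.23%. The part of these markers in that comparison was not tested. Fewer cells of a type and less RNA per cell cannot be told apart in these bulk cultures, and the screen gives no levels.

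**Figure D2:**
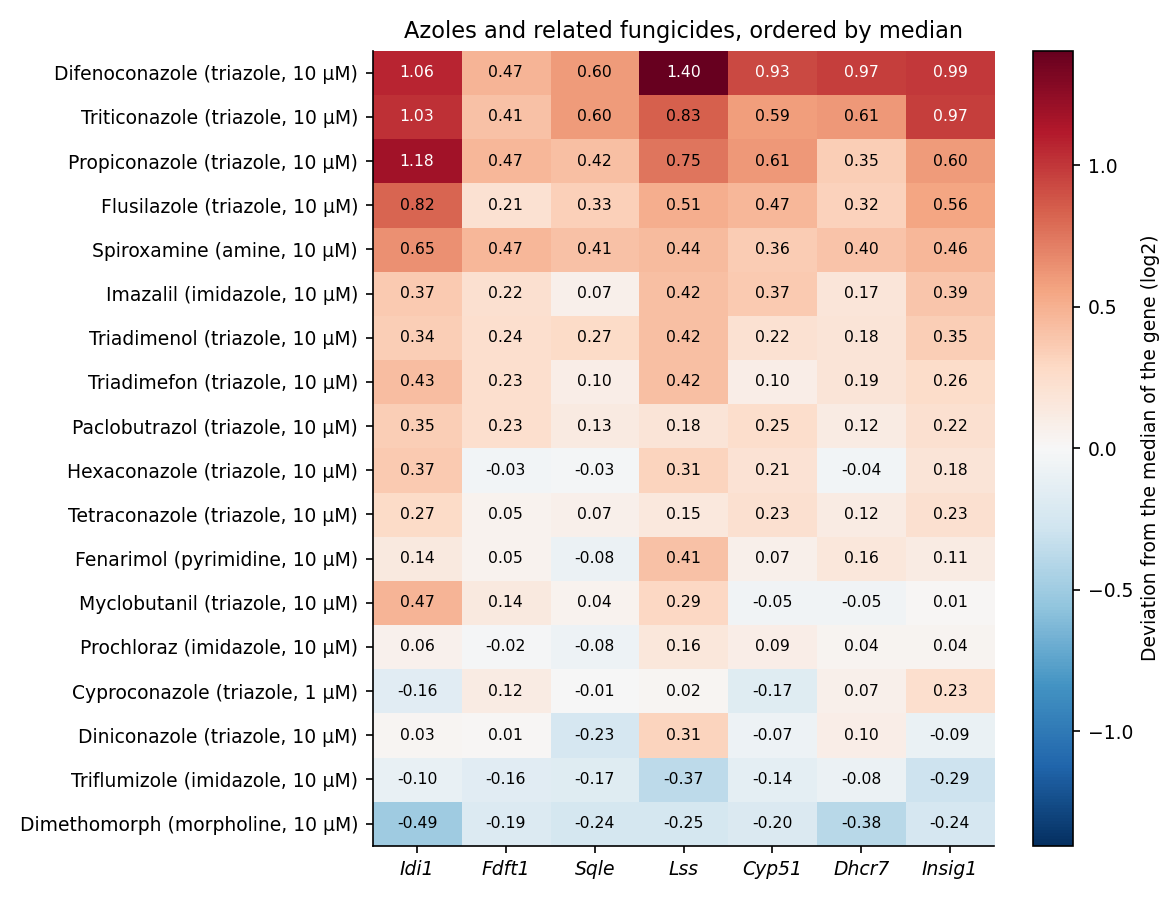
Median-centred values (colour and printed value, log2) of 7 genes (columns) for 14 azoles, spiroxamine, dimethomorph, fenarimol and paclobutrazol (rows, with ring type and concentration), ordered by the median over the genes. Difenoconazole is highest, with values from 0.47 to 1.40, and triflumizole and dimethomorph are below 0 for all 7 genes.

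The azoles differed among themselves. Ranked by the median over the 7 genes, difenoconazole stood at rank 1 of 297 chemicals (0.98), triticonazole at rank 3 (0.61), propiconazole at rank 5 (0.60) and flusilazole at rank 7 (0.47). All 7 genes were above 0 for each of these 4. Imazalil (0.37, rank 14), triadimenol (0.27, rank 23), triadimefon (0.23, rank 32) and tetraconazole (0.15, rank 60) also had all 7 genes above 0, so that 8 of 14 azoles did, against 13.9% of the 281 other chemicals.

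Hexaconazole (0.18, rank 44) had 4 genes above 0. Myclobutanil (0.04, rank 115), prochloraz (0.04, rank 117), cyproconazole at 1 μM (0.02, rank 135) and diniconazole (0.01, rank 141) lay in the middle of the ranking. Myclobutanil nevertheless had *Idi1* at 0.47 and *Lss* at 0.29 while its *Cyp51* and *Dhcr7* were at -0.05. Triflumizole (-0.16, rank 243) was the azole with all 7 genes below 0.

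**Figure D3:**
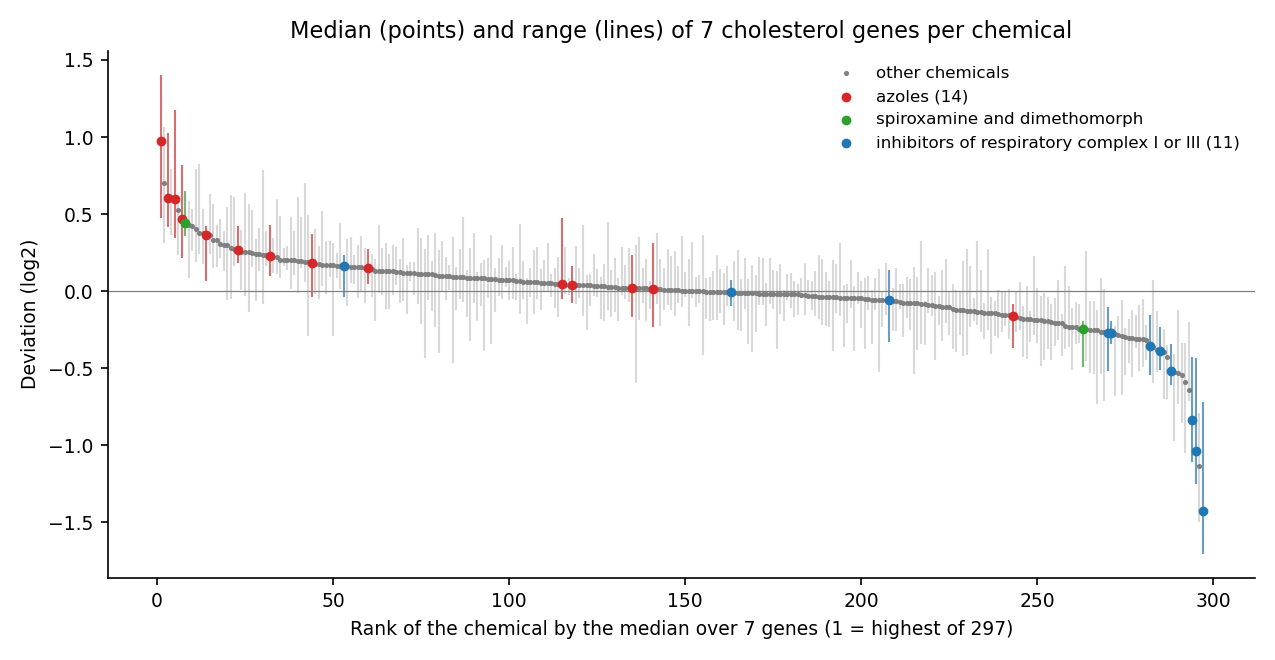
Median over the 7 genes (points) and the range from the lowest to the highest gene (lines), both as log2 deviations (y axis), for 297 chemicals ordered by the median (x axis); colours mark 14 azoles, spiroxamine and dimethomorph, and 11 inhibitors of respiratory complex I or III. Azoles hold 4 of the 10 highest ranks, and fenpyroximate, pyraclostrobin and trifloxystrobin hold ranks 297, 295 and 294.

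A value of 1 library is uncertain. For 14 chemicals with 2 or 4 libraries, topotecan not counted, the SD between libraries of the same chemical was 0.36 for *Idi1*, 0.45 for *Lss* and 0.26 for *Cyp51* (16 degrees of freedom). Between the 282 chemicals with 1 library it was 0.33, 0.37 and 0.23. Among these repeats, libraries of the same chemical had SDs no smaller than those between chemicals. Over the 32 topotecan libraries the SDs were smaller, at 0.23, 0.30 and 0.18, as they were over the 49 vehicle libraries, at 0.21, 0.32 and 0.16. Prochloraz, the azole with 2 libraries, had medians over the genes of -0.08 and 0.16. The rank of a single azole is therefore a description of its library, and the test over 14 azoles is the comparison that carries an error. That error was pooled over all chemicals, most of them not azoles. Azoles spread more for each gene, with SDs of 0.43 against 0.31 for *Idi1* and 0.32 against 0.22 for *Cyp51*. Its intervals and p-values may therefore understate the uncertainty from the spread among azoles.

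Imidazoles and triazoles differ in the number of nitrogen atoms in the azole ring, and were compared at 10 μM and 24 h: 3 imidazoles against 10 triazoles, 1 contrast fitted over all genes with the other chemicals at 10 μM. The imidazoles had lower means for all 7 genes, but no gene was called (limma, 0 of 13304 genes, 0% called; at an unadjusted p under 0.05, 761 genes and 4 of the 7). *Idi1* had a mean of 0.11 with imidazoles and 0.60 with triazoles, a difference of -0.49 (95% interval -0.87 to -0.11; limma, adjusted p = 0.85). *Lss* differed by -0.47 (-0.91 to -0.03; adjusted p = 0.86) and *Cyp51* by -0.22 (-0.48 to 0.05; adjusted p = 0.94). The intervals were wide against the triazoles' own means, so the classes were neither shown to differ nor shown to act alike.

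Triadimefon, a ketone, and triadimenol, the alcohol it is reduced to, were both used at 10 μM with 1 library each. *Idi1* was 0.34 with triadimenol and 0.43 with triadimefon, *Lss* was 0.42 with both, and *Sqle* was 0.27 and 0.10. If each library varied as repeats of a chemical do, the difference in *Idi1* was -0.09 with a 95% interval of -1.17 to 0.99, and that in *Sqle* was 0.17 with an interval of -0.57 to 0.91. Differences smaller than these limits could not be seen with 1 library each.

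Spiroxamine and dimethomorph, each in 1 library at 10 μM, lay on opposite sides. With spiroxamine all 7 genes were above 0, from 0.36 for *Cyp51* to 0.65 for *Idi1*, and its median of 0.44 ranked 8 of 297. With dimethomorph all 7 were below 0, from -0.49 for *Idi1* to -0.19 for *Fdft1*, and its median of -0.24 ranked 263. Fitted as 1 class of 2 chemicals against the 281 others, none of the 7 was called (limma, 0 of 7 also at an unadjusted p under 0.05), where 0.0225% of all genes were. The differences lay between 0.01 for *Dhcr7* (95% interval -0.35 to 0.37) and 0.15 for *Insig1* (-0.25 to 0.55; limma, adjusted p = 1 for both). This contrast shares its 281 chemicals with that of the azoles.

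Fenarimol, a demethylase inhibitor with a pyrimidine ring, had a median of 0.11 (rank 74), with *Lss* at 0.41 and *Sqle* at -0.08. Paclobutrazol, a triazole that regulates plant growth, had a median of 0.22 (rank 33) with all 7 genes above 0. Both were counted among the other chemicals.

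Chemicals of other classes reached medians as high as those of most azoles, but none as high as difenoconazole. The 6 highest medians were those of difenoconazole, cyprodinil (0.70), triticonazole, endosulfan (0.60), propiconazole and milbemectin at 1 μM (0.52). Cyprodinil, an anilinopyrimidine fungicide, had *Lss* at 1.06 and *Idi1* at 0.93. Endosulfan, an organochlorine insecticide, had *Insig1* at 0.79 and *Cyp51* at 0.70, the highest of the 281 other chemicals for both.

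**Figure D4:**
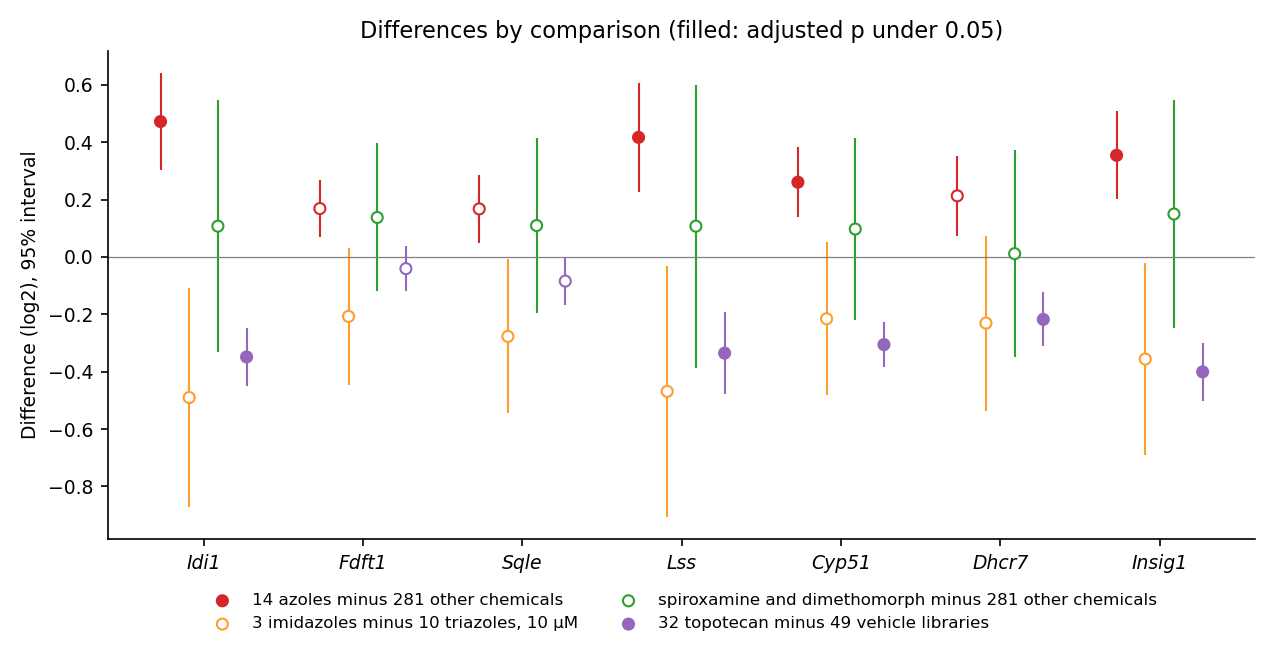
Difference between groups (y axis, log2, with 95% intervals) for 7 genes (x axis) in 4 comparisons of the screen; filled points passed an adjusted p of 0.05. For the azoles *Idi1*, *Lss*, *Cyp51* and *Insig1* passed above 0, for topotecan *Idi1*, *Lss*, *Cyp51*, *Dhcr7* and *Insig1* passed below 0, and none passed for the other 2 comparisons.

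Topotecan, an inhibitor of topoisomerase 1 used at 0.3 μM as the replicated control of the screen, gave a comparison with 32 libraries against 49 of vehicle. *Insig1*, *Idi1*, *Lss*, *Cyp51* and *Dhcr7* were lower with topotecan, 5 of the 7, where 20.9% of all genes were called lower. *Insig1* lay between -0.90 and 0.00 with topotecan, with a median of -0.52, and between -0.55 and 0.55 with vehicle, with a median of -0.16. Its difference was -0.40 ± 0.05 (SE; limma, adjusted p = 1.4e-10), and 14 of the 32 topotecan libraries were below the lowest vehicle library.

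*Cyp51* differed by -0.31 ± 0.04 (limma, adjusted p = 4.4e-10), with 20 of 32 topotecan libraries below every vehicle library. *Idi1* differed by -0.35 ± 0.05 (limma, adjusted p = 1.4e-08), *Lss* by -0.34 ± 0.07 (limma, adjusted p = 5.8e-05) and *Dhcr7* by -0.22 ± 0.05 (limma, adjusted p = 8e-05). For *Fdft1* the difference was -0.04 ± 0.04 (limma, adjusted p = 0.42) and for *Sqle* -0.08 ± 0.04 (limma, adjusted p = 0.089). In the list of sterol synthesis 11 of 15 genes were lower and none higher, with a median difference of -0.21 against 0.03 over all genes, among them *Hsd17b7* by -0.45 ± 0.05 (limma, adjusted p = 1.2e-12).

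Of the fatty acid genes 7 of 9 were lower with topotecan, including *Elovl6*, a fatty acid elongase, by -0.33 ± 0.04 (limma, adjusted p = 1.1e-12) and *Acaca*, which encodes acetyl-CoA carboxylase, by -0.56 ± 0.04 (limma, adjusted p = 2.4e-19). Among 11 genes of SREBP regulation and uptake 4 were higher, where 24.9% of all genes were, and 3 lower. *Npc2*, a carrier of cholesterol in lysosomes, was higher by 0.26 ± 0.03 (limma, adjusted p = 3.9e-10). Markers of neurons (6 of 6) and astrocytes (5 of 6) were also lower with topotecan, with medians of -0.29 and -0.46; their part in the result was not tested.

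Pyraclostrobin, an inhibitor of respiratory complex III, was the chemical whose counts were used here. All 7 genes were lower with 0.1 μM pyraclostrobin than with vehicle, 1.74-fold for *Fdft1* to 3.00-fold for *Dhcr7*, where 16.4% of the 12324 genes tested were called lower. In all 7 the 4 pyraclostrobin libraries lay below the 4 vehicle libraries, which was so for 17.02% of genes. Library totals were between 2409623 and 2550437 with pyraclostrobin and between 2778615 and 7833440 with vehicle, and the 7 genes had 30 to 3617 counts a library. Levels are given as CPM, the counts scaled to a common library total after TMM normalization. The study describes biological replicates, fewer than the libraries sequenced, and vehicle controls matched to the treatment, but the sources used here do not say which libraries share a culture. The p-values therefore measure the spread between libraries, part of which may be technical. The libraries numbered 428 stood apart from those numbered 702, 703 and 704, the treated one also being the pyraclostrobin library of the screen, and values without both are given beside the results.

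**Figure D5:**
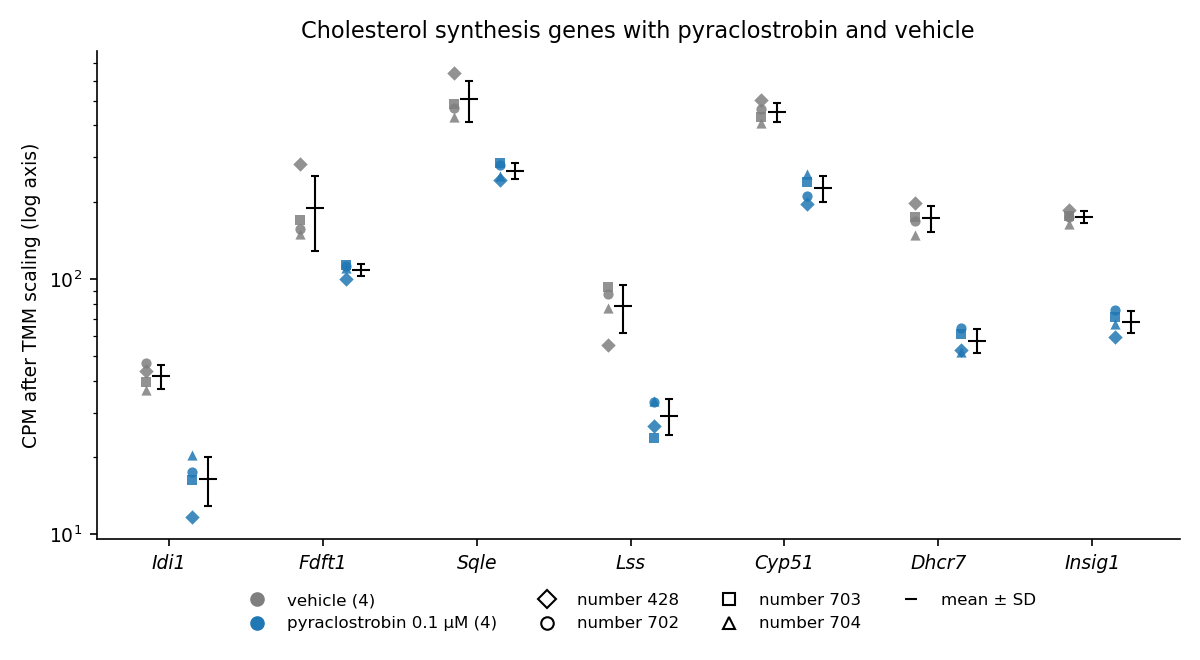
CPM after TMM scaling (y axis, log scale) of 7 genes (x axis) in 4 vehicle and 4 pyraclostrobin libraries; symbols mark the number in the library's name and black marks are mean ± SD. Pyraclostrobin libraries lie below vehicle libraries for every gene, and vehicle library 428 is the highest vehicle library for *Fdft1*, *Sqle*, *Cyp51*, *Dhcr7* and *Insig1* and the lowest for *Lss*.

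*Dhcr7* was at 52.7, 64.3, 60.9 and 51.9 CPM with pyraclostrobin in libraries 428, 702, 703 and 704, and at 197.9, 169.1, 175.9 and 148.5 with vehicle. The groups were well apart, and the log2 change was -1.58 ± 0.13 (SE; edgeR, adjusted p = 1.9e-05). *Insig1* was at 59.3, 75.5, 71.1 and 66.8 CPM with pyraclostrobin and at 186.2, 174.9, 177.4 and 163.9 with vehicle. Its change was -1.36 ± 0.12 (edgeR, adjusted p = 2.3e-05), with less spread among vehicle libraries than for any other of the 7 genes relative to its mean.

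*Lss* was at 26.5, 32.9, 23.8 and 33.4 CPM with pyraclostrobin and at 55.4, 87.3, 93.2 and 77.3 with vehicle. The change was -1.43 ± 0.19 (edgeR, adjusted p = 0.00026), with vehicle library 428 nearest to the treated ones. *Idi1*, the least counted of the 7, was at 11.7, 17.6, 16.3 and 20.4 CPM against 43.7, 46.9, 39.6 and 36.6. It changed by -1.33 ± 0.18 (edgeR, adjusted p = 0.00032), the lowest value being that of the treated library 428.

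*Cyp51* was at 197.7, 212.4, 239.9 and 259.0 CPM with pyraclostrobin and at 501.7, 464.3, 432.8 and 409.2 with vehicle, a change of -0.99 ± 0.12 (edgeR, adjusted p = 0.00017). *Sqle* was at 245.3, 280.4, 284.9 and 253.9 against 642.7, 467.8, 485.7 and 430.4, a change of -0.93 ± 0.14 (edgeR, adjusted p = 0.00048). *Fdft1* was at 100.2, 112.2, 113.1 and 110.4 against 283.5, 157.9, 171.2 and 150.6, a change of -0.80 ± 0.19 (edgeR, adjusted p = 0.0079). In *Fdft1* the vehicle library 428 was far above the other 3, and without both libraries 428 the change was -0.51 ± 0.08 (edgeR, adjusted p = 2.8e-05). Without them the other 6 genes changed by between -1.51 (*Lss*) and -0.75 (*Sqle*) and all 7 remained lower, where 24.9% of genes were.

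Other genes of the pathway fell as well: of 15 other genes of sterol synthesis 13 were lower and none higher, with a median of -1.21 against 0.00 over all genes tested. The log2 change was -1.78 ± 0.19 for *Nsdhl*, a sterol dehydrogenase (edgeR, adjusted p = 7.4e-05), and -2.30 ± 0.29 for *Mvd*, mevalonate diphosphate decarboxylase (edgeR, adjusted p = 0.00017). It was -1.35 ± 0.15 for *Hsd17b7* (edgeR, adjusted p = 9.4e-05). For *Stard4* it was -1.82 ± 0.21 (edgeR, adjusted p = 0.00011).

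*Abca1*, which exports cholesterol, went the other way and was higher by 2.46 ± 0.29 (edgeR, adjusted p = 0.00014). In the list of SREBP regulation and uptake 5 of 11 genes tested were higher, where 18.5% of all genes tested were, and 3 lower, and in that of efflux and oxysterol response 2 of 8 were higher and 2 lower. Of 9 genes of fatty acid synthesis, 4 were lower and none higher.

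Marker genes moved with pyraclostrobin too. The summed level of 6 neuronal markers was 3780 to 4660 CPM of the library total with pyraclostrobin and 7900 to 8670 with vehicle, and all 6 were called lower by edgeR. Astrocyte markers summed to 1020 to 3530 CPM against 614 to 978, with 4 of 6 called higher, and microglial markers to 69.3 to 130.0 against 19.1 to 26.3, with 5 of 5 tested called higher. Oligodendrocyte-lineage markers summed to 197.0 to 324.0 against 87.1 to 189.0 (3 of 5 tested higher), vessel markers to 10.7 to 22.9 against 4.34 to 5.04 (1 of 1 tested higher, *Cldn5* at 0 in all 8 libraries) and fibroblast markers to 115.0 to 239.0 against 17.6 to 53.2 (2 of 3 tested higher). Their part in the fall of the 7 genes was not tested. In the screen, the correlation of the mean of the 7 genes with that of the markers over 297 chemicals was 0.54 for neurons and between -0.18 and -0.06 for the other cell types.

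The lowest values in the screen are given without a test, with chemicals grouped by target after the values were seen. The 6 lowest medians over the 7 genes were those of fenpyroximate at 0.1 μM (-1.43), trichlorfon (-1.14), pyraclostrobin at 0.1 μM (-1.03), trifloxystrobin (-0.84), naled (-0.64) and butachlor (-0.59). Fenpyroximate inhibits respiratory complex I, and its values ran from -1.70 for *Insig1* to -0.72 for *Fdft1*. Trifloxystrobin, like pyraclostrobin a strobilurin that blocks complex III, ran from -1.11 for *Lss* to -0.43 for *Fdft1*.

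Of 4 complex I inhibitors, 3 had all 7 genes below 0: fenpyroximate, pyridaben at 0.1 μM (-0.36) and rotenone at 0.01 μM (-0.27), while tebufenpyrad at 0.01 μM was at -0.06. Of 7 complex III inhibitors, 5 had all 7 genes below 0: pyraclostrobin, trifloxystrobin, fenamidone (-0.52), famoxadone (-0.39) and fluoxastrobin at 1 μM (-0.27). Azoxystrobin at 0.1 μM (-0.01) and cyazofamid (0.16) did not. The 3 complex II inhibitors boscalid, carboxin and flutolanil lay between -0.00 and 0.02. Concentrations differed within these groups, and the 2 libraries of fenamidone were at -0.78 and -0.28 and those of famoxadone at -0.23 and -0.56. All 7 genes were below 0 in 15 of the 49 vehicle libraries too, and the median vehicle library was at -0.10.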

How the data were processed

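Libraries were grouped by their labels. The authors cleaned the reads (TagDust) and used TopHat with its default settings for alignment to mm9 (versions not given in the sources used here), removed ribosomal reads and counted reads over RefSeq exons by gene symbol. The deposited counts for pyraclostrobin are raw. For the screen the authors deposited log10 values of RPKM after quantile normalization, removal of batch effects by a mixed model and median-centring of each gene, so levels, depth and batches cannot be examined. Both tables lack strand information in the sources used here.

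Screen values were converted to log2, and chemicals (medians of their libraries) were compared with limma 3.58.1 (variance trend, Benjamini-Hochberg over 13304 genes, threshold 0.05; R 4.3.3), two-sided. Counts were tested with edgeR 4.0.16 (quasi-likelihood, TMM, at least 10 counts in at least 4 libraries, same threshold). Correlations used Python 3.11.15 and numpy 2.4.6. Functions were tested on simulated data. Azole and other classes follow textbook knowledge. The 7 genes, the gene and marker lists and the comparisons were chosen with earlier results of these data known. The text names the 7 genes, at most 8 other listed genes a comparison by adjusted p, the 10 most alike genes, all azoles and morpholine-type fungicides and the 6 highest and 6 lowest chemicals; other names were picked after their values were seen. Some genes that this rule names are not reported here. Alternatives were single libraries, vehicle as the comparison group, 10 μM only, variable genes only (SD above 0.1 on the log10 scale), no variance trend, a threshold of 0.01, DESeq2 1.42.0, relative log expression, no filter, a replicate block and leaving out each azole or library. A planned comparison of sulforaphane with fenamidone could not be fitted, because all 6 columns of that table carry the same name and it was not used. Libraries of a group differed beyond counting noise (chi-square per gene at least 1.82), so none was counted as a repeat deposit.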

Additional observations from a re-analysis of the deposited data

How the results depend on the processing

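Of the azole results, 24 genes and 4 of the 7 cholesterol genes were called. At a threshold of 0.01 this was 4 genes and 1 of the 7, among variable genes only 7 genes and 2 (of 2 tested), against vehicle libraries 401 genes and 7, and without flusilazole and imazalil (added after seeing the data) 1 gene and 1. Leaving out single azoles gave 1 to 30 genes and 1 to 4 of the 7; the cause was not tested. Each of the 7 azole differences stayed above 0 under every alternative run. For spiroxamine and dimethomorph 3 genes were called, 6 among variable genes, 38 against vehicle and 4 to 54 when either was left out. *Dhcr7* there was -0.0039 at 10 μM only. With dimethomorph alone the differences were -0.46 (*Idi1*), -0.19 (*Fdft1*), -0.22 (*Sqle*), -0.24 (*Lss*), -0.18 (*Cyp51*), -0.38 (*Dhcr7*) and -0.20 (*Insig1*), and with spiroxamine alone 0.68, 0.47, 0.44, 0.45, 0.38, 0.41 and 0.50. Leaving out single imidazoles gave 0 calls. For topotecan 6090 genes were called and 1788 among variable genes, with 2 (of 2 tested) cholesterol genes. For pyraclostrobin 4301 genes were called, 2631 at 0.01, 2193 without the 2 vehicle libraries with the highest totals (added after seeing the data) and 3344 to 5905 without single libraries; all 7 cholesterol genes stayed called in each of these. Without a filter the median of the same genes moved by -0.10.

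Library numbers are shared between pyraclostrobin and vehicle, and the study calls the vehicle controls matched without saying in the sources used here that a number marks a pair. Deviations of same-numbered libraries correlated at 0.38, 0.10, -0.03 and 0.16 for 428, 702, 703 and 704, and not every library correlated best with its own number, so the block was kept as an alternative. With a replicate block 4804 genes were called, the 7 included. The comparison with sulforaphane was not run. Depth is known for the count table only; at its smallest total of 2409623 counts, *Idi1* had 30.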

Other observations

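Organophosphates were spread over the whole ranking of the 7 cholesterol genes in the screen. Of 36 organophosphates, 18 had a median over the genes below 0 and 11 had all 7 genes below 0. All 7 genes were also below 0 in 15 of the 49 vehicle libraries. The medians of the organophosphates ran from -1.14 to 0.42, with a median of 0.01. The low end held trichlorfon (-1.14, *Insig1* at -1.49), naled (-0.64), profenofos (-0.54), dichlorvos (-0.53, *Idi1* at -0.97) and chlorpyrifos oxon (-0.39), and the high end methidathion (0.42), all at 10 μM with 1 library each. The grouping was made after the values were seen and was not tested.

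The genes that ran most against the mean of the 7 over 297 chemicals were *Tead1* (Pearson correlation -0.47), *Nes* (-0.47), *Ccnd1* (-0.46), *Ahnak* (-0.46) and *Itgav* (-0.45). *Nes* encodes nestin, an intermediate filament of progenitors and reactive astrocytes. Over the 49 vehicle libraries the correlation was -0.28 for *Tead1*, -0.25 for *Itgav* and -0.20 for *Ahnak*, but 0.08 for *Nes* and 0.13 for *Ccnd1*. Camptothecin at 0.3 μM and irinotecan at 10 μM, the other topoisomerase 1 inhibitors of the screen, had all 7 genes below 0, with medians of -0.53 and -0.06. The median vehicle library was at -0.10, so irinotecan was not lower than vehicle by this measure.

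No sample of the count table or of diethyltoluamide, the groups of 4, stood far enough from the others in any of the 7 genes to pass Dixon's test at 95% (21 groups of values). Values of the count table entered with an offset of 0.5 CPM, as is used for logs, and the outcome can depend on the scale. On the CPM scale, *Fdft1* in vehicle library 428 stood at 283.5 and the next vehicle library at 171.2.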
